A study of Mus musculus with 6 samples.

Results

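The CXC chemokine genes Cxcl1, Cxcl2, Cxcl3, Cxcl5, Cxcl9, Cxcl10, Cxcl12, Cxcl14 and Cxcl16 were examined in mouse mesenchymal stem cells exposed to medium from control or senescent macrophages. They were chosen by gene symbol, and all 9 were present among the 18124 genes of the count table. The cells were sorted from quadriceps of 6 naive male mice as cells carrying the label Col1-GFP, a green fluorescent protein driven by the collagen 1 promoter, and the surface antigen Sca-1. They were expanded in culture, used at passage 4 and kept for 72 hours in conditioned medium. The control group (3 libraries) received medium of untreated macrophages grown from the marrow of wild type mice with M-CSF. The senescent-medium group (3 libraries) received medium of such macrophages after exposure to 300 µM hydrogen peroxide for 3 hours, a second exposure 3 days later and a further 14 days of culture. Each conditioned medium was pooled from repeated 48 hour collections. The labels do not state the age of the mice, whether control macrophages were cultured equally long, or whether the 3 libraries of a group had separate cell isolates, so a p-value here speaks only to library-to-library spread, possibly technical.

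CXC chemokines are small secreted proteins that steer leukocytes through G protein-coupled receptors. Cxcl1, Cxcl2, Cxcl3 and Cxcl5 carry a glutamate-leucine-arginine motif ahead of the first cysteines, act on Cxcr2 and recruit neutrophils, and stromal cells make them in response to interleukin-1, tumour necrosis factor and other signals that activate NF-kB. Cxcl9 and Cxcl10 lack that motif, are induced by interferons and recruit Cxcr3-bearing T and NK cells. Cxcl12, which retains haematopoietic and other progenitor cells through Cxcr4, and Cxcl14 are made by stromal cells without an inflammatory stimulus. Cxcl16 is anchored in the membrane by a stalk, is released by the proteases Adam10 and Adam17 and binds Cxcr6.

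The windows before the transcription starts of 3 neutrophil attractant genes and of Cxcl10 are shown because NF-kB and interferon-activated factors are known to bind motifs of this kind in such genes. They are the 250 bases upstream of the RefSeq start on GRCm38.p6, 5′ to 3′ on the strand of the gene. The submitters' processing notes name another build, mm39, with no role given. Capitals mark matches on either strand to a kappaB motif, searched as GGG and TTTCC, or GGGA and TTCC, in each case with 2 free bases between the pieces. These forms overlap, and overlapping matches were joined. In Cxcl10 capitals also mark the interferon-stimulated response element, searched as GAAA and GAAA with 2 free bases between them.
Cxcl1, chr5:90890995-90891244, + strand: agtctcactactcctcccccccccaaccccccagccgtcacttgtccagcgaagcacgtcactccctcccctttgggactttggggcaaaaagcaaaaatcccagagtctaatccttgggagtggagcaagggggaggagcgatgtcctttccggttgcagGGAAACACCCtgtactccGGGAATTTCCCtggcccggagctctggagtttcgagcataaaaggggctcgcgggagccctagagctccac
Cxcl2, chr5:90903649-90903898, + strand: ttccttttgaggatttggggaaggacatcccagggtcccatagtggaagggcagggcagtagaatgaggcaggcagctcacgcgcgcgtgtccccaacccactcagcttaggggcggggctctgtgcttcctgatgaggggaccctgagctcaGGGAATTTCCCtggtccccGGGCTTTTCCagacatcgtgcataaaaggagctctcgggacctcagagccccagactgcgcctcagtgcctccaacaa
Cxcl3, chr5:90785851-90786100, + strand: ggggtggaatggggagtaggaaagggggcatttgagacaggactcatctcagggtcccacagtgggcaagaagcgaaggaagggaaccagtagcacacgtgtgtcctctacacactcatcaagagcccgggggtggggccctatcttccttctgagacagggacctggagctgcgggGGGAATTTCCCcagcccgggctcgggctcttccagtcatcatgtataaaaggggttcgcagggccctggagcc
Cxcl10, chr5:92348890-92349139, - strand: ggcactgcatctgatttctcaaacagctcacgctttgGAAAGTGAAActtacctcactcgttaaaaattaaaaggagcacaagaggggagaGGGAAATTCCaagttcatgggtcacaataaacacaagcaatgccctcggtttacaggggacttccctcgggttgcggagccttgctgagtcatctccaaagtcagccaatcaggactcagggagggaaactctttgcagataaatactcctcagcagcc
Cxcl1, Cxcl2 and Cxcl3 shared the run GGGAATTTCCC, whose first base lay 71, 97 and 73 bases before the start. Cxcl1 and Cxcl2 each had a further match nearby, GGAAACACCC at 89 bases and GGGCTTTTCC at 78 bases before the start. Cxcl10 held the response element GAAAGTGAAA at 213 bases and the kappaB match GGGAAATTCC at 159 bases before the start. A kappaB match was present in 2.26% of the 32841 windows of this length in the table and a response element match in 2.98%. Windows were found for 7 of the 9 genes, not for Cxcl5 and Cxcl16. Of the others, Cxcl14 held 1 response element match, GAAACAGAAA, and Cxcl9 and Cxcl12 held neither motif. TATAAA (12.4% of windows) was found in Cxcl3 and Cxcl9, and TTC and GAA with 3 free bases between them (7.02% of windows) in Cxcl14. A match describes the letters only.

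The libraries held 17228162 to 21659434 estimated counts. Markers of muscle stroma were present in both media: all 9 of that list were counted, with a summed level of 13336 to 13427 CPM (counts scaled for the depth of each library) in control medium and 18008 to 18515 CPM in senescent medium, although Lum was near 0 (0 to 0.240 CPM). Most of that sum and its rise was collagen: Col1a1, Col1a2 and Col3a1 had means of 5361, 2856 and 3249 CPM in control medium. In senescent medium these were 7516, 4139 and 4524 CPM. Dcn, Thy1 and Cd34 rose too, Pdgfra fell from 265 to 217 CPM, and Ly6a was at 1206 and 1235 CPM with overlapping groups. Of 10 macrophage markers 4 were in the table, summing to 11.9 to 14.3 CPM and 15.0 to 20.1 CPM, and the defining markers Ptprc, Adgre1 and Itgam were not listed. The 4 did not move together. Mean Lyz2 rose from 6.71 to 11.7 CPM and Csf1r fell from 4.62 to 3.20 CPM with overlapping groups. Mean Cd68 was 1.19 and 1.69 CPM and Mrc1 0.317 and 0.329 CPM. Of 6 neutrophil markers only S100a8 was listed (0.113 to 0.169 and 0.240 to 0.533 CPM). Summed levels in control and senescent medium were 23.5 to 25.98 and 25.7 to 32.5 CPM for 3 of 5 endothelial markers, 1.41 to 1.89 and 4.33 to 5.86 CPM for 1 of 5 myogenic markers (Des), and 106 to 117 and 105 to 119.5 CPM for 5 of 5 pericyte and smooth muscle markers. They were 0.113 to 0.337 and 0.0533 to 0.24 CPM for 1 of 4 T and NK cell markers and 9.17 to 10.6 and 5.75 to 5.91 CPM for 3 of 3 platelet markers, mostly Ppbp, itself a CXC gene. The pericyte and smooth muscle markers moved both ways under near-equal sums. Most of those sums was Notch3, with means of 78.8 and 78.6 CPM in control and senescent medium. Cspg4 rose (log2 fold change 0.971), while Mcam and Myh11 fell (−0.979 and −0.998). Rgs5 and Notch3 had overlapping groups. The part of all these cell types in the results was not tested.

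In senescent macrophage medium the neutrophil attractants Cxcl5 and Cxcl1 fell and the homeostatic chemokines Cxcl12 and Cxcl14 rose. Cxcl5 and Cxcl1 were 3.07- and 1.77-fold lower, Cxcl16 was 1.81-fold lower, and Cxcl12 and Cxcl14 were 1.84- and 1.85-fold higher. Cxcl9 was called higher by 2.48-fold at a very low level, a call that was lost when any of 3 single libraries was left out. Cxcl3 was 6.10-fold lower, but it passed the filter on low counts through the control libraries alone, which fixes that direction. Cxcl2 and Cxcl10 had too few counts to be tested. Their summed counts, not scaled for depth, were higher in senescent medium (12 against 6 and 34 against 16), but the groups overlapped. With no filter on low counts neither was called. Of the 7 members tested 4 were called lower, Cxcl3 among them, and 3 higher (edgeR quasi-likelihood test, Benjamini-Hochberg adjustment over 14644 genes, adjusted p under 0.05). Among all genes tested 49.5% passed that threshold, 24.9% lower and 24.6% higher, so passing it is common in this comparison. With libraries scaled by their totals alone the split over all genes was 2589 higher and 4813 lower, against 3607 and 3644, while that of the members stayed at 3 higher and 4 lower. Control and senescent-medium libraries did not overlap for 6 of the 7 members tested, Cxcl3 among them, against 55.8% of all genes tested. For Cxcl3 the filter fixes this separation as well as the direction, so it adds nothing to that count. In bulk RNA a change in the number of cells that make a transcript and a change in transcript per cell cannot be told apart.

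**Figure D1:**
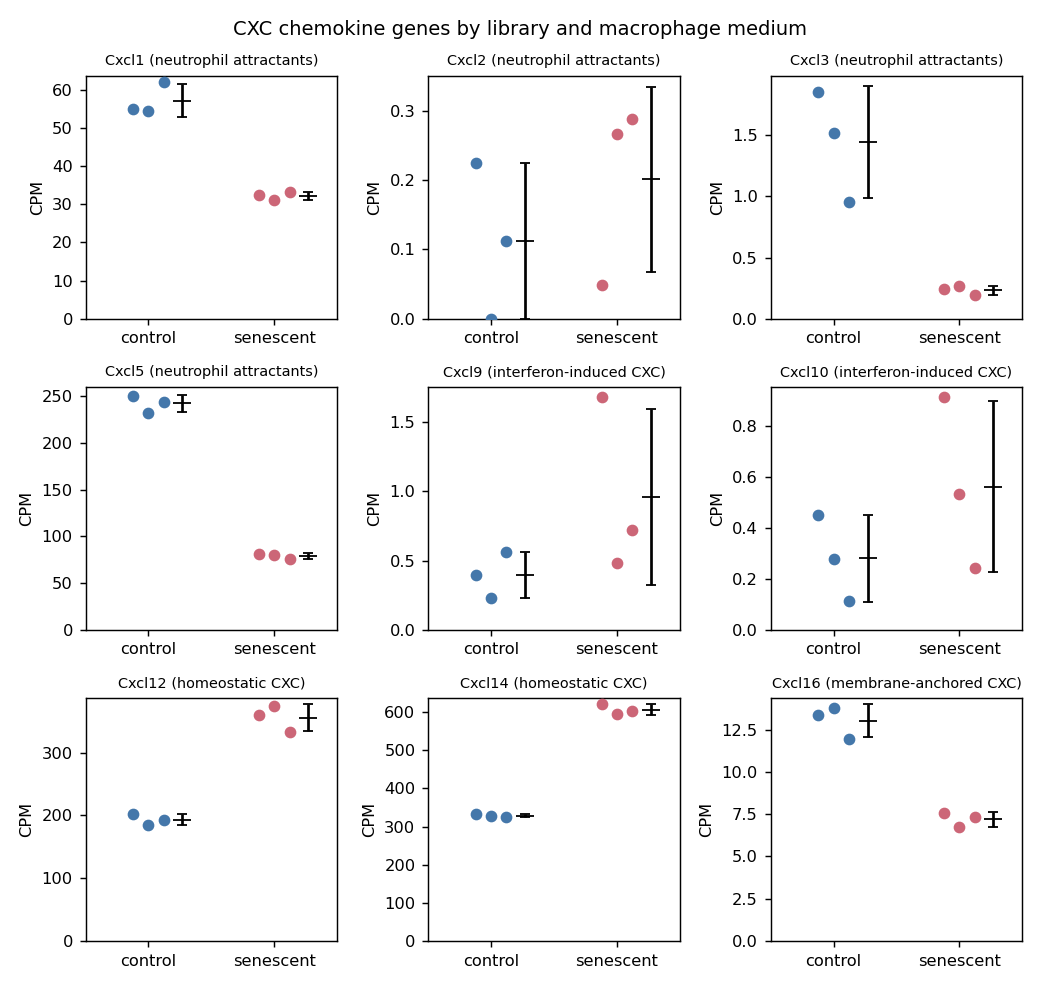
Level of each CXC chemokine gene in CPM (y axis, linear, from 0) in the 3 control-medium libraries (blue) and 3 senescent-medium libraries (red); the black mark beside each group is the mean with its SD. Cxcl5, Cxcl1, Cxcl3 and Cxcl16 lie lower and Cxcl12 and Cxcl14 higher in every senescent-medium library, while the groups overlap for Cxcl2, Cxcl9 and Cxcl10. Cxcl3 passed the filter on low counts through the control libraries alone.

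Cxcl5 (ENSMUSG00000029371), the most abundant neutrophil attractant of these cells, stood at 249.8, 232 and 244 CPM in control replicates 1, 2 and 3 and at 81.2, 79.8 and 75.7 CPM in senescent-medium replicates 1, 2 and 3. The groups were far apart and each was tight. Its log2 fold change was −1.62 ± 0.041 (SE; edgeR adjusted p = 4.78e-24). Cxcl1 (ENSMUSG00000029380), a ligand of the same receptor, measured 55.1, 54.4 and 62.1 CPM in control medium and 32.4, 31.0 and 33.2 CPM in senescent medium. Control replicate 3 was the highest library, and no senescent-medium library reached the lowest control. The log2 fold change of Cxcl1 was −0.83 ± 0.060 (SE; edgeR adjusted p = 6.95e-13).

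Cxcl3 (ENSMUSG00000029379) was scarce, with 33, 33 and 17 counts in the control libraries and 5, 5 and 4 in the senescent-medium libraries. These correspond to 1.86, 1.52 and 0.956 CPM against 0.24, 0.266 and 0.192 CPM. Its log2 fold change of −2.61 ± 0.44 (SE; edgeR adjusted p = 1.12e-05) is the largest fall of the members but rests on 83 and 14 counts in all, and the gene passed the filter on low counts through the control libraries alone, and a gene that passes in this way has to be lower. With each library left out in turn the value ranged from −2.83 to −2.41. Cxcl2 (ENSMUSG00000058427), in inflamed tissue a companion of Cxcl1, was close to absent. It had 4, 0 and 2 counts in control medium and 1, 5 and 6 in senescent medium, no library rose above 0.288 CPM, and the 0 in control replicate 2 allows up to 0.138 CPM (3 counts; counting error only). With no filter on low counts the log2 fold change of Cxcl2 was 0.87 ± 0.95 (SE; edgeR adjusted p = 0.518). Ppbp, a platelet-derived CXC ligand of the same receptor and not one of the 9, was 6.54, 7.33 and 6.52 CPM in control medium and 3.79, 3.09 and 3.65 CPM in senescent medium, a log2 fold change of −0.95 ± 0.15 (SE; edgeR adjusted p = 4.34e-06).

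The neutrophil attractants Cxcl5 and Cxcl1 fell by unequal amounts. The summed level of all 4 was 307, 288 and 307 CPM in control medium and 114, 111 and 109 CPM in senescent medium. Per kilobase of exon, Cxcl5 made up 79.7% to 81.7% of that group in control medium and 69.4% to 71.9% in senescent medium, and Cxcl1 nearly all of the rest. All 6 values of Cxcl1, Cxcl2 and Cxcl3, whose sequences are related, were within 0.01 of a whole number in the estimated counts. For Cxcl5 4 of the 6 were. Whole values are common here, at 70.3% to 72.8% of all values in a library.

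Cxcl12 (ENSMUSG00000061353) rose from 202, 184 and 193 CPM in control replicates 1, 2 and 3 to 361, 375 and 333 CPM in senescent-medium replicates 1, 2 and 3. The lowest senescent-medium library was well above the highest control. The log2 fold change was 0.88 ± 0.042 (SE; edgeR adjusted p = 3.99e-15). Cxcl14 (ENSMUSG00000021508), a stromal chemokine whose receptor is debated, measured 332, 328 and 326 CPM in control medium and 622, 596 and 603 CPM in senescent medium. It had the least spread of the 9 members relative to its level, and its log2 fold change was 0.89 ± 0.033 (SE; edgeR adjusted p = 7.34e-20). The sum of both homeostatic genes went from 512 to 535 CPM in the control libraries to 935 to 983 CPM in the senescent-medium libraries. Of the 6 estimated counts, 0 were whole for Cxcl12 and 1 for Cxcl14, by the same tolerance.

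The interferon-induced members were barely expressed. Cxcl9 (ENSMUSG00000029417) had 7, 5 and 10 counts in control medium and 35, 9 and 15 in senescent medium, or 0.394, 0.231 and 0.562 CPM against 1.68, 0.479 and 0.721 CPM. Senescent-medium replicate 1 stood above the other five libraries, and the groups overlapped. The log2 fold change was 1.31 ± 0.49 (SE; edgeR adjusted p = 0.0279). Without senescent-medium replicate 1 it was 0.63 (adjusted p = 0.395, edgeR), and the threshold was also missed without control replicate 1 (1.32, adjusted p = 0.0527) or control replicate 2 (1.01, adjusted p = 0.146), in DESeq2 (1.30, adjusted p = 0.0729) and in limma-voom (1.17, adjusted p = 0.0512). Cxcl10 (ENSMUSG00000034855) had 8, 6 and 2 counts in control medium and 19, 10 and 5 in senescent medium. Its groups overlapped, senescent-medium replicate 1 was again the highest at 0.912 CPM, and with no filter on low counts its log2 fold change was 0.99 ± 0.60 (SE; edgeR adjusted p = 0.203). Exons of Art3 overlap 5.91% of the Cxcl10 exons on the opposite strand in the older annotation. Art3 itself was at 1.75, 1.25 and 1.35 CPM in control medium and 3.26, 3.09 and 3.46 CPM in senescent medium, and strand use in counting is not given.

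Cxcl16 (ENSMUSG00000018920), which is both a membrane-bound adhesion molecule and a soluble chemokine, fell. It measured 13.4, 13.8 and 11.9 CPM in control medium and 7.58, 6.71 and 7.31 CPM in senescent medium, with no overlap and a log2 fold change of −0.85 ± 0.11 (SE; edgeR adjusted p = 1.07e-07). Exons of Zmynd15 overlap 18.3% of its exons on the opposite strand, and Zmynd15 was at 0.16 to 0.675 CPM in the 6 libraries. Of the proteases that release the protein, Adam17 went from 82.7, 87.0 and 84.3 CPM to 69.5, 66.3 and 73.2 CPM, a log2 fold change of −0.28 ± 0.047 (SE; edgeR adjusted p = 9.57e-06). Adam10 was at 148 ± 2.69 CPM in control medium and 144 ± 2.84 CPM in senescent medium (SD, n = 3), a difference of −0.042 ± 0.038 (SE) that missed the threshold (edgeR adjusted p = 0.383). With libraries scaled by their totals alone Adam10 passed it, at −0.12 (adjusted p = 0.00786).

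**Figure D2:**
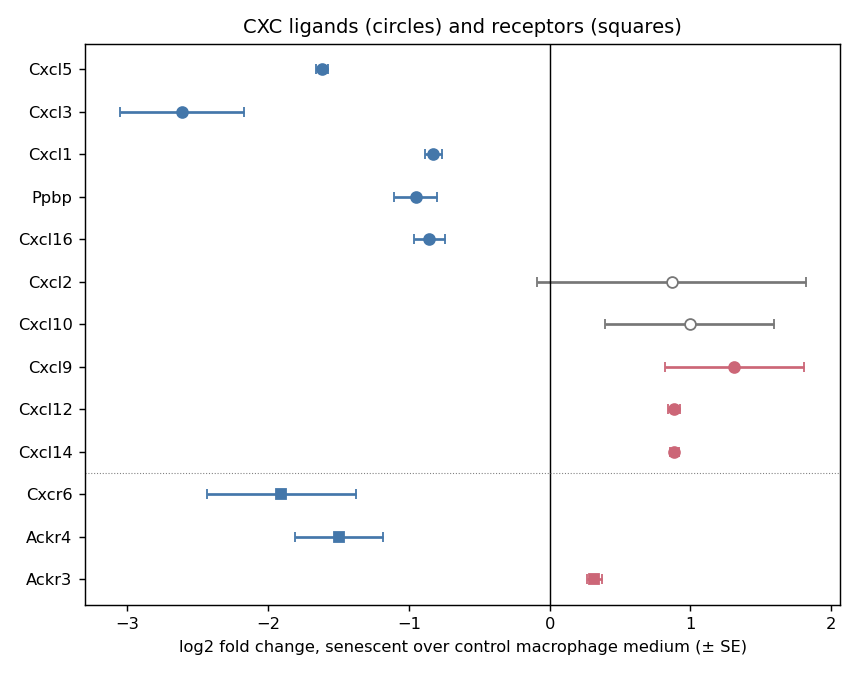
Log2 fold change of CXC ligands (circles) and receptors (squares), senescent over control macrophage medium, with SE as bars; blue fell, red rose, and open grey symbols are Cxcl2 and Cxcl10, fitted with no filter on low counts and not called. Cxcl5, Cxcl3, Cxcl1, Ppbp and Cxcl16 lie left of 0, and Cxcl12 and Cxcl14 lie together near 0.88. Cxcl3 and Cxcr6 passed the filter on low counts through the control libraries alone, which fixes their direction.

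Few receptor genes for these ligands were in the count table. Of 10 CXC and atypical chemokine receptor genes 3 were listed, and 7, which therefore have no value, were not, among them Cxcr2, Cxcr3 and Cxcr4, the signalling receptors of the neutrophil attractants, the interferon-induced ligands and Cxcl12. Ackr3 rose and Ackr4 fell, and Cxcr6 was called lower after passing the filter through the control libraries alone. Ackr3, an atypical receptor that takes up Cxcl12 without G protein signalling, rose from 51.7, 50.8 and 52.6 CPM to 67.8, 62.9 and 62.5 CPM (log2 fold change 0.32 ± 0.051, SE; edgeR adjusted p = 5.32e-06). Cxcr6, the receptor of Cxcl16, had 10, 19 and 25 counts in control medium and 3, 2 and 10 in senescent medium (−1.91 ± 0.53, SE; edgeR adjusted p = 0.00341), a direction that this filter fixes. Ackr4, which takes up CC chemokines, fell from 2.01 ± 0.265 to 0.713 ± 0.0779 CPM (SD, n = 3), a log2 fold change of −1.49 ± 0.31 (SE). Exons of Acad11, which was at 31.2 ± 1.61 and 29.8 ± 2.61 CPM, overlap 8.90% of its exons on the opposite strand.

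Levels of different genes can be compared once divided by exon length. In control medium Cxcl14 was the highest at 179.8 ± 1.87 CPM per kilobase (SD, n = 3), followed by Cxcl5 at 129.99 ± 4.78, Cxcl1 at 30.5 ± 2.29, Cxcl12 at 23.6 ± 1.10, Cxcl16 at 4.31 ± 0.323 and Cxcl3 at 0.413 ± 0.130. Cxcl9 (0.131), Cxcl10 (0.124) and Cxcl2 (0.0545) came last, and their libraries overlapped. In senescent medium Cxcl14 led at 332 ± 7.38 CPM per kilobase, ahead of Cxcl12 at 43.6 ± 2.61 and Cxcl5 at 42.3 ± 1.54, which overlapped each other. Cxcl1 followed at 17.2 ± 0.599, Cxcl16 at 2.38 ± 0.148, and the 4 scarce genes at 0.318 or less with overlapping libraries between neighbours. The place of Cxcl12 depends on the length used: with its longest transcript in place of all its exons its control level was 34.3 CPM per kilobase, above Cxcl1.

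The makeup of the CXC transcripts shifted accordingly. Neutrophil attractants made up 43.7%, 42.7% and 44.4% of the 9 genes' CPM per kilobase in control replicates 1, 2 and 3 and 13.6%, 13.7% and 13.6% in senescent-medium replicates 1, 2 and 3. Cxcl14 alone went from 48.4%, 49.7% and 48.1% to 75.8%, 75.1% and 76.4%, and Cxcl12 from 6.25% to 6.59% in the control libraries to 9.43% to 10.6% in the senescent-medium libraries. The ratio of Cxcl14 to Cxcl5 per kilobase was 1.36 to 1.44 in control medium and 7.62 to 8.12 in senescent medium. These shares describe the 9 genes and carry no test. They are scaled by all exons, and that of Cxcl12 depends on the length used.

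**Figure D3:**
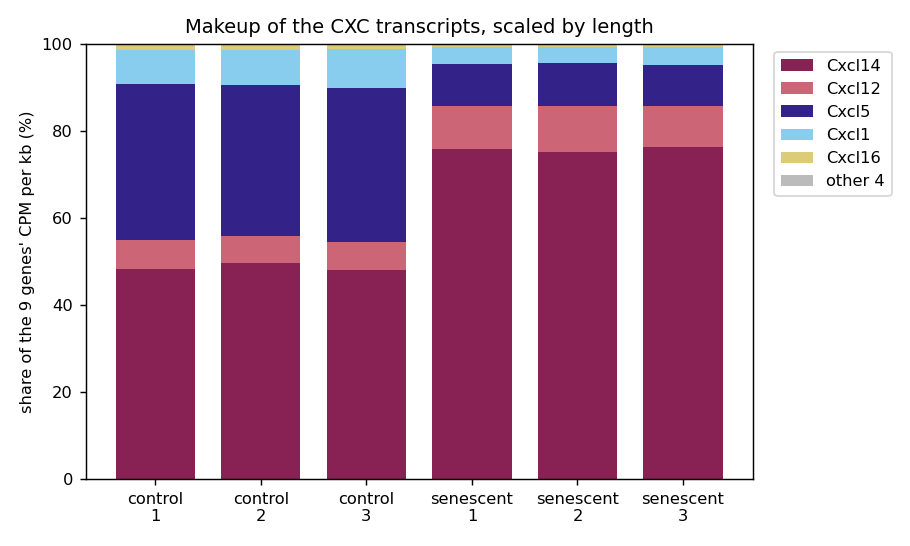
Share of the 9 genes' CPM per kilobase (y axis, percent) held by each gene in each of the 6 libraries; the other 4 genes are Cxcl2, Cxcl3, Cxcl9 and Cxcl10. Cxcl14 fills 48.1% to 49.7% of the bar in control medium and 75.1% to 76.4% in senescent medium, and Cxcl5 34.6% to 35.7% and 9.41% to 9.86%.

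The NF-kB arm, a list that mixes signals upstream of the neutrophil attractants with feedback inhibitors and other targets of the same pathway, moved both ways. Of 39 tested genes of this list 12 rose, 13 fell and 14 did not pass the threshold, with a median log2 fold change of 0.050. All genes tested also split nearly evenly, 24.6% higher and 24.9% lower, so movement both ways is not particular to this list. With library totals alone 6 rose and 16 fell. DESeq2 called 16 of them, and 16 were called in edgeR without senescent-medium replicate 3. Il1r1, the signalling receptor of interleukin-1, fell from 306, 292 and 303 CPM to 174, 175 and 173 CPM, a log2 fold change of −0.79 ± 0.035 (SE; edgeR adjusted p = 4.69e-18). The monocyte chemokine genes Ccl2 and Ccl7, which are targets and not signals in this list, fell as well, with log2 fold changes of −1.28 ± 0.038 and −0.69 ± 0.038. Ikbkg, the regulatory subunit of the IkB kinase, rose from 73.7 ± 2.09 to 108 ± 5.27 CPM (SD, n = 3), a log2 fold change of 0.55 ± 0.046. Nfkbiz, a nuclear IkB protein that promotes neutrophil chemokine genes, was called higher at 0.23 ± 0.086 (SE; edgeR adjusted p = 0.0267) with overlapping groups. That call was lost in DESeq2, with library totals alone and without control replicate 1 or 2 or senescent-medium replicate 2 or 3, where the adjusted p was 0.0534 to 0.194. Zc3h12a, a ribonuclease that degrades inflammatory transcripts, was at 15.9 ± 1.62 and 18.1 ± 1.47 CPM (SD, n = 3; adjusted p = 0.0958, edgeR), and it passed the threshold without control replicate 2 (adjusted p = 0.0339).

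More genes of the interferon arm, which holds signals upstream of Cxcl9 and Cxcl10 and feedback inhibitors, were called higher than lower. Of 19 tested genes 10 rose, 2 fell and 7 did not pass the threshold, with a median log2 fold change of 0.28. With each library left out in turn, 7 to 11 of the list were called higher. For comparison, 24.6% of all genes tested were called higher and 24.9% lower. Ifih1, a sensor of double-stranded RNA, rose from 8.06, 6.50 and 6.64 CPM to 26.5, 21.0 and 18.2 CPM (log2 fold change 1.64 ± 0.13, SE; edgeR adjusted p = 2.41e-08). The kinase genes Jak1 and Tyk2 and the receptor gene Ifngr2 rose by less, with log2 fold changes of 0.26 ± 0.033, 0.45 ± 0.074 and 0.28 ± 0.044. Irf1, a transcription factor that drives Cxcl9 and Cxcl10, rose from 13.5 ± 0.632 to 17.6 ± 1.81 CPM (SD, n = 3), a log2 fold change of 0.38 ± 0.092. Senescent-medium replicate 1 was the highest library for Cxcl9, Cxcl10, Ifih1 and further genes of the interferon arm. Whether this shared height bears on the Cxcl9 call was tested only by leaving that library out.

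Genes that trim, hold or present chemokines also moved both ways: of 14 tested 5 rose, 5 fell and 4 did not pass the threshold. Such a near-even split was also that of all genes tested (24.6% higher and 24.9% lower). With library totals alone 4 of the list rose and 8 fell. Ctsk, whose product cathepsin K is a collagen-degrading protease able to cleave Cxcl12, rose from 86.2, 82.4 and 79.0 CPM to 187, 193 and 179 CPM, a log2 fold change of 1.17 ± 0.042 (SE; edgeR adjusted p = 2.71e-20). The membrane protease gene Mmp14 changed by 0.41 ± 0.034. Among carriers of heparan sulfate, which tethers chemokines at the cell surface, Sdc3 rose by 0.61 ± 0.034 and Sdc2 by 0.38 ± 0.036. Dpp4, a peptidase that inactivates Cxcl10 and Cxcl12 by trimming them, had 1 count in each control library and 5, 4 and 2 counts in the senescent-medium libraries, too few to test.

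Cxcl5, Ppbp, Pf4, Cxcl3, Cxcl15, Cxcl1 and Cxcl2 follow one another on chromosome 5 in that order in RefSeq. Of these, Cxcl5, Ppbp and Cxcl1 fell, Cxcl3 was called lower after passing the filter through the control libraries alone, and Pf4, Cxcl15 and Cxcl2 reached at most 0.461 CPM in any library. Rassf6, the gene next to Cxcl5, fell too, from 3.49, 4.57 and 3.60 CPM to 2.16, 1.81 and 1.97 CPM (log2 fold change −0.98 ± 0.20, SE; edgeR adjusted p = 0.000195). On the other side Mthfd2l, next to Cxcl2, was called lower by a small amount (−0.28 ± 0.099, SE; edgeR adjusted p = 0.0203), and Ereg, which encodes the growth factor epiregulin, was called higher (0.28 ± 0.11, SE; adjusted p = 0.0321). The calls of Mthfd2l and Ereg were lost in DESeq2 (adjusted p = 0.0697 and 0.0773) and in 3 and 4 of the 6 fits that left out a library, and that of Ereg also with library totals alone (0.142). These neighbours were looked at after the members' values were known.

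**Figure D4:**
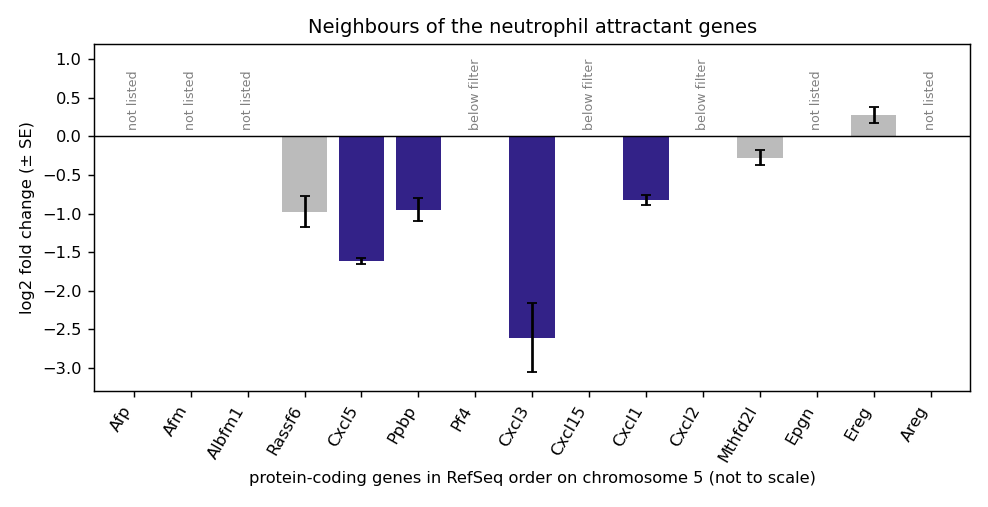
Log2 fold change (y axis, senescent over control medium, bars for SE) of protein-coding genes in their RefSeq order around the neutrophil attractant genes, not to scale; CXC genes are dark and other genes grey. The tested CXC genes lie between −0.83 (Cxcl1) and −2.61 (Cxcl3), Rassf6 at −0.98, and Mthfd2l and Ereg close to 0. Cxcl3 passed the filter on low counts through the control libraries alone, which fixes its direction. Pf4, Cxcl15 and Cxcl2 were below that filter and have no bar.

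The genes with the profile nearest to that of Cxcl5 over the 6 libraries, by distance between log2 CPM values centred on each gene's mean, were Pbk, Prl2c3, Cdc20, Slc6a17 and Abca7, with log2 fold changes of −1.63, −1.67, −1.53, −1.54 and −1.68. Nearest to Cxcl12 were Gbe1, Cercam, Hmox1, Crlf2 and Xdh, with log2 fold changes of 0.87, 0.85, 0.94, 0.89 and 0.87. With 6 libraries in 2 groups this likeness reflects mainly the size of the change between media. By the same distance, Cxcl3, Cxcl16 and Cxcl1 ranked 444, 475 and 485 from Cxcl5.

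Over 15 other analyses (DESeq2, limma-voom, other scalings and filters, the replicate number as a block, and each library left out) the log2 fold change ran from −1.70 to −1.59 for Cxcl5, −0.91 to −0.77 for Cxcl1, −0.94 to −0.81 for Cxcl16, 0.80 to 0.93 for Cxcl12 and 0.80 to 0.91 for Cxcl14, and each of these genes passed the threshold in all 15. Cxcl3, which the stricter filter on low counts removed, passed it in 14 of 14. It passed the main filter through the control libraries alone, so these calls add nothing on its direction.

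**Figure D5:**
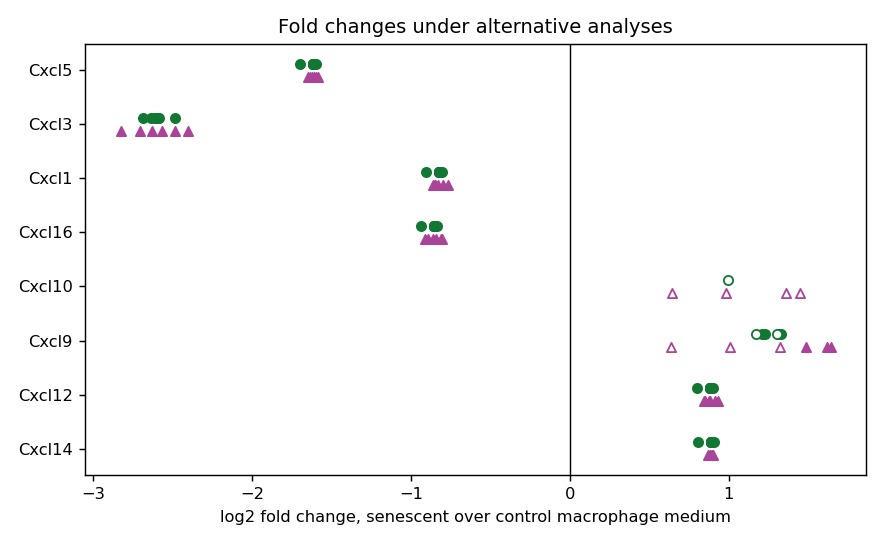
Log2 fold change of the members (x axis) under other tools, scalings, filters and the block (green circles) and with 1 library left out (purple triangles); filled symbols passed an adjusted p of 0.05 and open symbols did not. The values of Cxcl5, Cxcl1, Cxcl16, Cxcl12 and Cxcl14 are filled throughout, while Cxcl9 is filled in 9 of 14 and Cxcl10 in 0 of 5.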

How the data were processed

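The authors deposited estimated counts per Ensembl gene for 6 libraries of about 600 ng RNA, sequenced as 150 bp pairs per the labels' protocols. STAR, DESeq2 and mm39 are named per the submitters' processing notes, with no role given; how reads were counted, with which annotation and on which strand, is not given in the sources used here. Listed genes had at least 10 counts in all, so a gene not listed gets no value. Values were rounded to whole numbers. Symbols, exon lengths and overlaps came from GENCODE M21 (GRCm38), matched on identifier for 18092 of 18124 genes.

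Tests used edgeR 4.0.16 in R 4.3.3 (TMM scaling, filterByExpr, robust quasi-likelihood F-test, two-sided, medium as the only term) over 14644 genes. SE was taken as |log2 fold change|/√F. CPM uses TMM-scaled library sizes. DESeq2 1.42.0, limma 3.58.1 (voom) and the other settings served as alternatives. The fit was tested on simulated data. Replicates of a medium differed by more than sampling noise (chi-square per degree of freedom 2.68 to 8.35).

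The members and lists were chosen with earlier results of these data known. The text names all members, the 4 tested genes of lowest adjusted p in each list, further genes set in the rule (Cxcr2, Cxcr3, Cxcr4, Cxcr6, Ackr3, Adam10, Adam17, Dpp4, Nfkbiz, Zc3h12a, Irf1; another is not reported here), and the 5 genes nearest in profile to Cxcl5 and Cxcl12. Neighbouring and overlapping genes were added after values were seen.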

Additional observations from a re-analysis of the deposited data

How the results depend on the processing

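Of the members, 3 or 4 were called lower and 2 or 3 higher in every alternative run; 2 higher means that Cxcl9 was lost or not tested. When members that pass the filter on low counts through one medium alone were left out, a choice made after seeing the data, 3 were lower and 3 higher. The NF-kB arm fell from 25 called genes to 16 in DESeq2 and to 13 at an adjusted p of 0.01; with each library left out it ranged from 16 to 21. The cause was not tested. The counts for the receptor, interferon arm and processing lists stayed within 1.5 times of 3, 12 and 10. Replicate numbers showed no clear pairing of the libraries: deviations of same-numbered libraries from their group means correlated at 0.0187, 0.0019 and 0.0262. With 3 libraries per medium this cannot settle whether same-numbered libraries shared an origin. With the replicate block 4 members were lower and 3 higher. Cxcl12 and Cxcl16 moved beyond their SD with the longest transcript as length, to 34.3 and 4.82 CPM per kilobase in control medium. Depth limits Cxcl2, Cxcl3, Cxcl9 and Cxcl10, which had 6 to 83 counts over the control libraries and 12 to 59 over the senescent-medium libraries.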
